A study of Homo sapiens with 4 samples.

Results

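The transcriptome of PBRM1-disrupted HEK293T cells given the C1233W mutant of PBRM1 (1 library) was compared with that of the same cells given P1048R or T1202K, pooled into 1 group of 2 libraries. These are 3 of the 4 libraries of the series; the library with unaltered PBRM1 was left out of the comparison. Genes that reached at least 1 CPM (counts scaled to library size) in at least 1 of the 3 libraries were compared. This kept 15971 of 58735 genes. A gene could pass this filter through 1 library alone, the one in which it was high. HEK293T is a line derived from human embryonic kidney. In all groups the endogenous PBRM1 had been disrupted by CRISPR, and the cells had taken up a plasmid for a GFP-tagged mutant for 48 h. The sources used here do not say whether the knockout line was 1 clone or what share of its cells took up each plasmid.

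PBRM1, also called BAF180, is the subunit that marks the PBAF form of the SWI/SNF chromatin remodelling complexes. Its bromodomains bind acetylated histone tails, and they are followed by BAH (bromo-adjacent homology) domains, a module found in many chromatin proteins. P1048R changes a residue of the first BAH domain, whereas T1202K and C1233W change residues of the second. Several programmes described here are well known stress responses. ATF4 is a transcription factor made when amino acids run short or proteins misfold, and it switches on amino acid transporters and synthetic enzymes. HIF factors accumulate when oxygen is low and switch on glucose transport, glycolysis and collagen-modifying enzymes.

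Each mutant was represented by 1 library, so no difference has a replicate check. The libraries held 10348552 counted reads for C1233W, 11205322 for P1048R and 10993748 for T1202K, and reads fell on 25670 to 26718 genes. At this depth a floor of 3 reads corresponded to 0.261 to 0.298 CPM. The test, edgeR's quasi-likelihood test, had 1 residual degree of freedom, namely the difference between P1048R and T1202K. Those are different constructs rather than replicates, and C1233W was assumed to vary as they did. The prior degrees of freedom were estimated as infinite, so 1 spread trend over all genes set each SE and p-value. A gene's own difference between P1048R and T1202K did not widen its SE. As a description that does not use this spread, a gene also passed a size rule when its C1233W level differed at least 2-fold from both other libraries in the same direction, with both 95% counting intervals excluding no change. Some kidney developmental genes were expressed. SALL1, a regulator of kidney progenitors, was at 43.5 CPM in C1233W, against 51.2 in P1048R and 46.4 in T1202K, and PAX2 was at 6.57 CPM, against 7.38 and 5.81 CPM. PAX8, another renal lineage factor, had no more than 2 reads in any library.

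PBRM1 itself was far more abundant in C1233W than in either other mutant. The gene (ENSG00000163939, chromosome 3, 52545352 to 52685917, GRCh38) stood at 62225 CPM in C1233W, against 9128 CPM in P1048R and 15695 CPM in T1202K. These were 6.04%, 0.938% and 1.57% of all counted reads. The C1233W level was thus 6.82-fold that of P1048R and 3.97-fold that of T1202K, with a log2 fold change over the pair of 2.33 ± 0.17 (SE; edgeR, Benjamini-Hochberg adjusted p = 3.236e-40). DESeq2, run on the same counts, gave PBRM1 an adjusted p of 0.129. Reads of the plasmid and of the disrupted locus are counted as 1 gene here. In these bulk libraries, fewer expressing cells and less RNA per cell cannot be told apart either. The dose of construct therefore moved with the comparison throughout, and the change of residue and the amount of PBRM1 RNA cannot be told apart.

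Most genes differed little, and among called genes the median change was larger upward than downward. edgeR called 346 of the 15971 genes higher in C1233W (2.17%) and 261 lower (1.63%) at an adjusted p under 0.05, 607 in all (3.8%). The called genes that were higher had a median size of log2 fold change of 0.97, and those that were lower 0.66, beside 0.23 over all genes. The 2 directions were not matched in level, with medians of 10.0 CPM in the higher and 42.2 CPM in the lower genes. Genes at low counts need a larger change to be called. At a minimum of 5 CPM edgeR called 255 higher and 269 lower. The part of level in the difference of size was not tested. For scale, T1202K and P1048R differed by a median of 0.17 in log2 ratio over all genes. At least 2-fold on the fitted scale were 165 of the higher genes (1.03%) and 22 of the lower genes (0.138%). The size rule took in 241 genes higher in C1233W (1.51%) and 32 lower (0.2%), 273 in all (1.71%), of which 122 (0.764%) and 10 (0.0626%) were edgeR calls as well.

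The number of calls rested strongly on the model. DESeq2 called 22 genes higher and 4 lower, all of them among the edgeR calls, and edgeR with no filter on low counts called 7 higher and 0 lower. Scaling by total counts gave 293 higher and 550 lower, and removing a trend with GC content and transcript length gave 448 higher and 677 lower, so the split between the directions was not fixed by these data. In the 3 libraries C1233W lay above both others for 5806 genes (36.4%), below both for 6536 (40.9%) and between them for 3629 (22.7%).

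**Figure D1:**
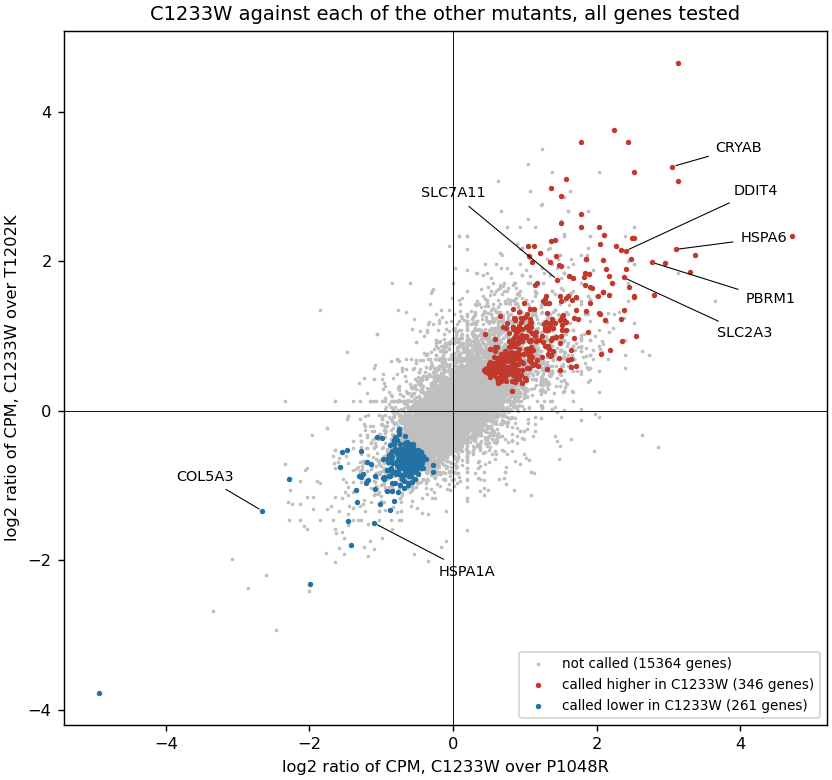
Each point is 1 of the 15971 genes, placed by the log2 ratio of its CPM in C1233W over P1048R (horizontal axis) and over T1202K (vertical axis). Red points are the 346 genes called higher in C1233W by edgeR, blue points the 261 called lower, and all called genes lie on the same side of 0 on both axes. Since both axes share the C1233W library, the diagonal spread of the grey points is built in.

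Points at the edges of that plot had few reads. PCED1B, singled out after its values were seen, had 11 reads in C1233W, against 1 in P1048R and 0 in T1202K. Z94721.1, an unnamed transcript singled out in the same way, had 0 reads in C1233W, against 17 and 7.

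Stress and nutrient genes led the genes that were higher in C1233W. DDIT4 (REDD1), an inhibitor of the growth kinase mTORC1 that is induced by both ATF4 and HIF, stood at 56.2 CPM in C1233W, against 10.6 in P1048R and 12.7 in T1202K. It rose by a log2 fold change of 2.27 ± 0.18 (SE; edgeR, Benjamini-Hochberg adjusted p = 9.18e-31; DESeq2 adjusted p = 1.92e-11). SLC2A3 (GLUT3), a high-affinity glucose transporter, had 149 CPM in C1233W, against 28.7 and 43.3 CPM in P1048R and T1202K, a log2 fold change of 2.05 ± 0.15 (edgeR, Benjamini-Hochberg adjusted p = 3.286e-36). Both genes lay several-fold above either other mutant, at 5.29 and 4.41 times their levels for DDIT4 and 5.19 and 3.45 times for SLC2A3. Reads of SLC2A3 may be shared with its near-copy SLC2A14, which was also called higher, at 3.68 CPM in C1233W, against 0.695 and 1.54 CPM.

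STC1, a secreted glycoprotein hormone induced by several stresses, was at 16.8 CPM in C1233W, against 2.95 in P1048R and 3.36 in T1202K, and rose by 2.41 ± 0.27 in log2 (edgeR, Benjamini-Hochberg adjusted p = 4.092e-15). ASNS, the enzyme that makes asparagine, was at 15.5 CPM, against 3.04 and 3.45 CPM (log2 fold change 2.26 ± 0.28; edgeR, Benjamini-Hochberg adjusted p = 7.437e-13). In both genes the other mutants lay close to each other and well below C1233W. CHAC1, which degrades glutathione, had 17.4 CPM in C1233W, against 4.86 and 4.81 CPM in P1048R and T1202K. SLC7A11, the cystine importer that feeds glutathione synthesis, had 116 CPM in C1233W, against 42.2 and 34.2 CPM. So a glutathione-degrading enzyme and a transporter that supplies its synthesis were both higher, with log2 fold changes of 1.84 ± 0.26 and 1.60 ± 0.16 (edgeR, Benjamini-Hochberg adjusted p = 7.902e-10 and 7.576e-21). SLC7A11-AS1, an antisense gene at the same locus, was also called (2.09 CPM in C1233W, against 0.347 and 0.636). It reached 1 CPM in C1233W alone, so the filter kept it through the library in which it was high. With the strand setting of the counts unknown, its reads and those of SLC7A11 cannot be told apart.

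Further protein-coding genes among the 14 highest by the naming rule carry other functions. TMEM255A, a membrane protein gene, had 13.2 CPM in C1233W, against 5.38 in P1048R and 4.54 in T1202K. PPFIA4, a liprin that scaffolds synapses, had 16.2 CPM, against 5.64 and 7.27 CPM, and AGAP2, a GTPase-activating protein, 16.5 CPM, against 6.17 and 7.27 CPM. NGFR, the low-affinity neurotrophin receptor, and NRN1, a neurite growth protein, rose by 1.27 ± 0.28 and 1.25 ± 0.18 in log2 (edgeR, Benjamini-Hochberg adjusted p = 0.00153 and 9.404e-09). NGFR was at 10.5 CPM in C1233W, against 4.08 and 4.63 CPM in P1048R and T1202K, and NRN1 at 43.3 CPM, against 17.2 and 19.2 CPM. Of these 5 genes, NRN1 was called by DESeq2 as well (adjusted p = 0.005041).

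Fewer genes met the naming rule downward, 6 against 28 upward. COL5A3, a minor fibrillar collagen chain, had 2.49 CPM in C1233W, against 15.98 in P1048R and 6.36 in T1202K, a log2 fold change of -2.17 ± 0.33 (edgeR, Benjamini-Hochberg adjusted p = 7.336e-08; DESeq2 adjusted p = 0.9013). The other mutants themselves differed here, with a log2 ratio of T1202K over P1048R of -1.32, a difference that did not enter the SE. ULK4, a pseudokinase, had 2.29 CPM in C1233W, against 6.43 and 6.45 CPM. SAMD15, EFCAB6 and the phosphatase DUSP28 fell by 1.23, 1.14 and 1.08 in log2 at levels between 3.18 and 4.28 CPM in C1233W, and DESeq2 called none of these 3 or ULK4. HSPA1A, the remaining gene, is described with the heat shock genes.

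**Figure D2:**
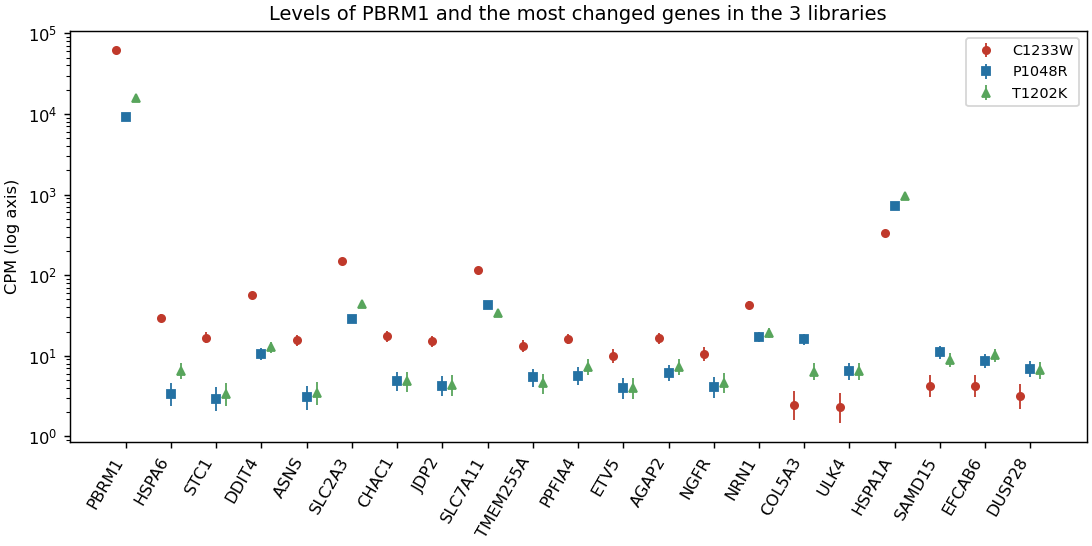
Level in CPM (log axis) of PBRM1, the 14 highest and the 6 lowest genes by the naming rule in C1233W (red circles), P1048R (blue squares) and T1202K (green triangles), 1 library each, with bars for the 95% counting interval. The naming rule kept only genes in which C1233W lay at least 2-fold from both other libraries. HSPA6 stands at 29.4 CPM, against 3.39 and 6.54, and DUSP28 at 3.18 CPM, against 6.86 and 6.63.

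The ATF4 and hypoxia genes are shown with promoter sequence, because binding motifs of ATF4 and HIF have been described for several of them. A search for TGATGNAA, a core of the C/EBP-ATF response element, and for ACGTG, the core of the hypoxia response element, covered the 250 bases before each RefSeq transcription start on both strands. The sequences printed are those of the named ATF4 and hypoxia genes whose window held a match. They come from RefSeq (GRCh38.p14), read 5′ to 3′ on the strand of the gene, and capitals mark the matches. DDIT4 is shown from chr10:72273674-72273919 (plus strand), directly before the annotated gene. ASNS is shown from chr7:97872458-97872487 (minus strand), CHAC1 from chr15:40953251-40953280 (plus strand) and ANKRD37, a hypoxia-induced ankyrin repeat gene, from chr4:185396676-185396705 (plus strand). These last 3 stretches lie before the RefSeq start but inside the longer GENCODE gene.
DDIT4: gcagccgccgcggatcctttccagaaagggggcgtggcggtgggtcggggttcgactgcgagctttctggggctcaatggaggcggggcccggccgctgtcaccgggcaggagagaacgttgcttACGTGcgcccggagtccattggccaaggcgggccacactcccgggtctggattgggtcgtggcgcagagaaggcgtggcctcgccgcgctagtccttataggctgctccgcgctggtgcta
ASNS: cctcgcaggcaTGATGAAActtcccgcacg
CHAC1: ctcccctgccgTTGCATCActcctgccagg
ANKRD37: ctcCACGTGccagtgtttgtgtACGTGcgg

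ASNS and CHAC1 each hold the ATF4-type motif, in CHAC1 read on the opposite strand. DDIT4 holds ACGTG, and ANKRD37 holds it 3 times, of which 2 matches are the opposite strands of CACGTG. JDP2, PFKFB4 and SESN2 had neither string in their windows. SLC2A3 and SLC7A11 had no entry. Over all 27305 RefSeq promoters, TGATGNAA was present in 3.19% and ACGTG in 18.7%. Among the 27 ATF4 list members with a promoter entry, TGATGNAA was found in 3 (11.1%), and among the 27 such hypoxia list members ACGTG was found in 15 (55.6%). Among called genes the shares were 6 of 250 (2.4%) for TGATGNAA and 60 of 250 (24%) for ACGTG in the higher genes, and 5 of 206 and 55 of 206 (26.7%) in the lower genes. The shares among all tested genes with an entry were 1.38% and 23.2%, close to those of the called genes for ACGTG.

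Of the 33 tested genes of the ATF4 and amino acid response, edgeR called 17 higher in C1233W (51.5%, beside 2.17% of all genes) and 0 lower. This list and the others, hypoxia and ribosome biogenesis included, were chosen with earlier results of these data known. The shares called in them are therefore descriptions and not tests of the lists. The other 16 were not called, and C1233W lay below both other libraries for 6 members, as for 40.9% of all genes. The list's median log2 fold change was 0.51, beside -0.03 over all genes. The median stood at 0.59 over P1048R alone and at 0.44 over T1202K alone. DESeq2 called 8 of the members higher, and edgeR without a filter on low counts 3.

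ATF4 itself was called by both tests. Its RNA stood at 440 CPM in C1233W, against 282 in P1048R and 280 in T1202K, a log2 fold change of 0.65 ± 0.15 (SE; edgeR, Benjamini-Hochberg adjusted p = 0.00338). Among transcription factors of the response, DDIT3 (CHOP), linked to cell death in prolonged stress, had 21.3 CPM, against 11.6 and 10.6 CPM, CEBPB had 17.8 CPM, against 8.51 and 11.1 CPM, and JDP2, a repressor of AP-1 sites, had 15.1 CPM, against 4.26 and 4.36 CPM. All 3 were called higher by edgeR, and JDP2 by DESeq2 too. The ATF4 partners and relatives did not move together, however. ATF3 lay between the others, at 205 CPM in C1233W, against 240 in P1048R and 167 in T1202K, and ATF5 was at 7.36 CPM, against 12.4 and 11.7 CPM (edgeR, Benjamini-Hochberg adjusted p = 0.0997).

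Amino acid transporters and synthetic enzymes were among the called members. SLC38A2, a sodium-coupled neutral amino acid transporter, had 407 CPM in C1233W, against 219 in P1048R and 242 in T1202K (log2 fold change 0.82 ± 0.15; edgeR, Benjamini-Hochberg adjusted p = 3.39e-05). SLC7A1, the cationic amino acid transporter, had 187 CPM, against 120 and 128 CPM, and SLC7A5, a leucine transporter, 118 CPM, against 75.9 and 90.1 CPM. SLC7A5 and SLC7A1 were called by edgeR alone, and SLC3A2, the partner chain of SLC7A5 and SLC7A11, was at 225 CPM, against 229 and 246 CPM. The light chains SLC7A5 and SLC7A11 were thus called higher, whereas the shared heavy chain was below both other libraries and not called.

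In serine and one-carbon metabolism, PSAT1 had 145 CPM in C1233W, against 98.2 in P1048R and 104 in T1202K. MTHFD2, a mitochondrial folate enzyme, had 204 CPM, against 128 and 143 CPM. Both were called higher by edgeR, with log2 fold changes of 0.53 and 0.59, whereas PHGDH, which opens serine synthesis, missed the threshold at 217 CPM, against 148 and 180 CPM (edgeR, Benjamini-Hochberg adjusted p = 0.1175). PCK2, the mitochondrial PEP carboxykinase, was outside the list and was singled out after its values were seen, with 28.2 CPM, against 11.1 and 15.9 CPM. SESN2, a stress-induced inhibitor of mTORC1 that also counts among p53 targets, had 102 CPM, against 64.1 and 64.3 CPM. Cytosolic aminoacyl-tRNA synthetases charge tRNAs and include known ATF4 targets. Of 20 tested, edgeR called 0 higher, beside 2.17% of all genes, and 1 lower (5%, beside 1.63%). The gene called lower was VARS, at 130 CPM in C1233W, against 190 and 191 CPM. The median log2 fold change of the synthetases was -0.07.

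Of the 36 tested hypoxia-inducible genes, edgeR called 18 higher in C1233W (50%, beside 2.17% of all genes) and 0 lower. The median log2 fold change was 0.61. C1233W lay above both other libraries for 32 of the 36 members, and for 36.4% of all genes. DESeq2 called 6 of them and edgeR without the filter 2. DDIT4 and STC2 belong to this list and to the ATF4 list.

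The called members covered several arms of the response. BNIP3 and BNIP3L, which mark mitochondria for removal, had 201 and 157 CPM in C1233W, against 87.4 and 101 CPM in P1048R and 104 and 97.4 CPM in T1202K. BNIP3 rose by 1.06 ± 0.15 in log2 (edgeR, Benjamini-Hochberg adjusted p = 2.183e-09). PLOD2, which hydroxylates collagen lysines, had 242 CPM, against 130 and 129 CPM (log2 fold change 0.90 ± 0.15; edgeR, Benjamini-Hochberg adjusted p = 1.651e-06). The collagen prolyl hydroxylase subunits P4HA1 and P4HA2 and the lysyl oxidases LOX and LOXL2 were called too, LOX at 57.6 CPM in C1233W, against 32.0 and 29.4 CPM. Collagen-processing enzymes thus made up 5 of the 18 called genes.

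Regulators of glucose use were also among them. PFKFB4 and PFKFB3, which set the level of a glycolytic activator, had 21.3 and 93.4 CPM in C1233W, against 10.1 and 67.3 CPM in P1048R and 9.44 and 62.5 CPM in T1202K. SLC2A1 (GLUT1) had 45.4 CPM, against 25.8 and 34.2 CPM, a smaller difference than that of SLC2A3. ANKRD37 had 5.77 CPM, against 1.303 and 2.452 CPM, a log2 fold change of 1.62 ± 0.37 (edgeR, Benjamini-Hochberg adjusted p = 0.002261; DESeq2 adjusted p = 0.8294). Of the classical HIF targets, VEGFA, an angiogenic growth factor, was at 80.0 CPM in C1233W, against 92.7 in P1048R and 69.7 in T1202K, and ADM, the adrenomedullin gene, was at 9.95 CPM, against 9.03 and 11.0 CPM. Both lay between the other mutants.

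**Figure D3:**
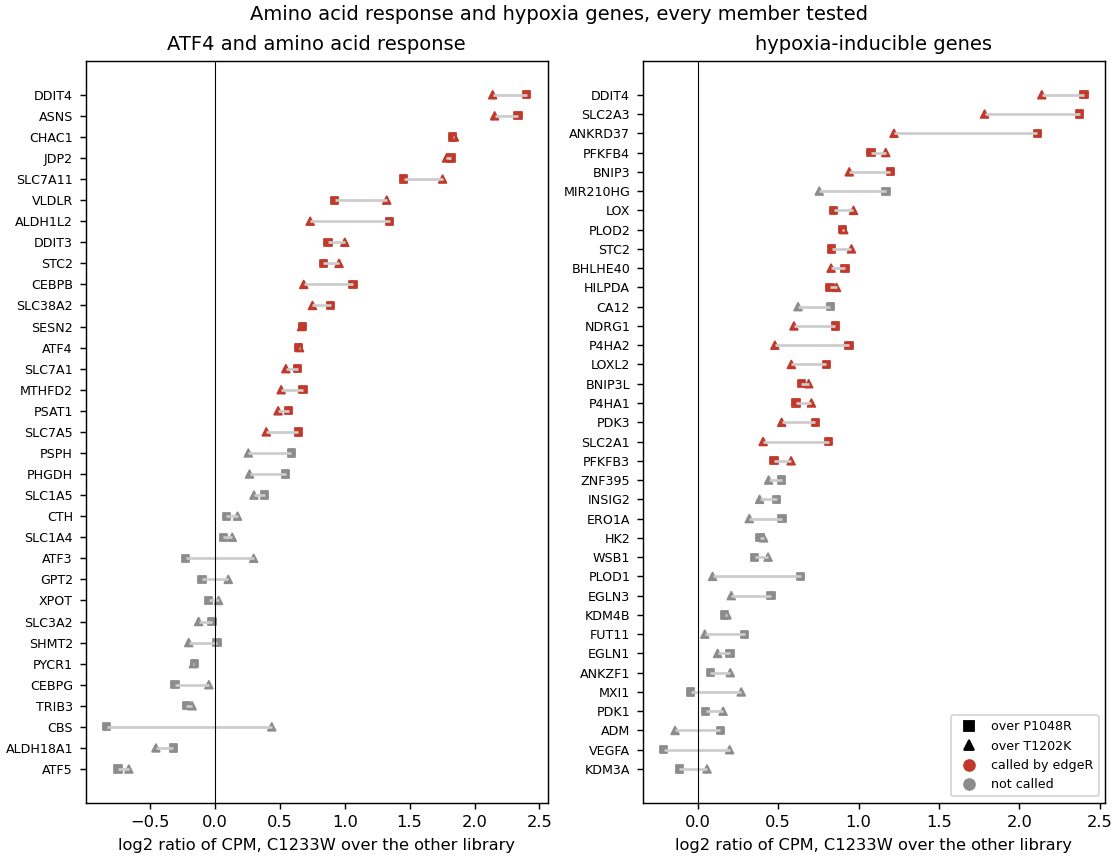
Every tested member of the ATF4 and amino acid response (33 genes, left) and of the hypoxia-inducible genes (36 genes, right), with the log2 ratio of CPM in C1233W over P1048R (squares) and over T1202K (triangles). Red marks members called by edgeR, 17 on the left and 18 on the right, and all red symbols lie to the right of 0.

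Glycolytic enzymes gave fewer calls. Of 19 tested, edgeR called 4 higher (21.1%, beside 2.17% of all genes) and 0 lower, and DESeq2 called none. The median log2 fold change was 0.20. The median was 0.39 over P1048R alone and 0.11 over T1202K alone. PGK1 had 452 CPM in C1233W, against 247 in P1048R and 331 in T1202K, and LDHA, which makes lactate, had 1096 CPM, against 661 and 797 CPM. ENO2 and ALDOC were the others, with log2 fold changes of 0.61 and 0.68. In each of the 4 genes C1233W was above both libraries, as it was for all genes called higher. Nuclear genes of oxidative phosphorylation gave 0 higher and 1 lower (NDUFS3) of 34, or 2.94% lower, beside 1.63% of all genes. Their median was -0.04.

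Heat shock genes split by member. Of 25 tested, edgeR called 3 higher (12%, beside 2.17% of all genes) and 3 lower (12%, beside 1.63%). DESeq2 called the same 3 higher and 2 of the 3 lower. The median log2 fold change was 0.06, with its sign changing when libraries were scaled by total counts or P1048R was left out. CRYAB, a small heat shock protein, had 8.26 CPM in C1233W, against 0.955 in P1048R and 0.817 in T1202K, a log2 fold change of 3.20 ± 0.39 (SE; edgeR, Benjamini-Hochberg adjusted p = 6.919e-13). HSPA6, a strictly inducible HSP70, had 29.4 CPM, against 3.39 and 6.54 CPM, a log2 fold change of 2.57 ± 0.23 (edgeR, Benjamini-Hochberg adjusted p = 3.477e-25). Its near-copy HSPA7, with which it may share reads, had 3.08 CPM, against 0.608 and 0.636 CPM. CRYAB and HSPA7 reached 1 CPM in C1233W alone, so the filter kept them through the library in which they were high. DNAJB1, a co-chaperone of HSP70, had 248 CPM, against 119 and 145 CPM.

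In the opposite direction stood the major HSP70 genes. HSPA1A had 338 CPM in C1233W, against 723 in P1048R and 956 in T1202K, a log2 fold change of -1.31 ± 0.17 (edgeR, Benjamini-Hochberg adjusted p = 9.958e-12; DESeq2 adjusted p = 5.24e-08). HSPA1B, which encodes nearly the same protein and may exchange reads with HSPA1A, had 194 CPM, against 358 and 487 CPM. HSPA8, the constitutive HSP70, had 512 CPM, against 771 and 932 CPM (log2 fold change -0.73 ± 0.16; edgeR, Benjamini-Hochberg adjusted p = 0.001499). In all 3 genes T1202K was the highest library and C1233W the lowest. HSP90AA1 and HSPH1, other inducible chaperones, lay between the other libraries, at 4105 and 295 CPM in C1233W, against 3845 and 259.5 in P1048R and 4226 and 296 in T1202K. The list of endoplasmic reticulum chaperones and other genes of the unfolded protein response gave no call by either test among 21 genes (median 0.03). That list did not hold ATF4, DDIT3 or CHAC1, which edgeR called higher. Over all genes edgeR called 3.8%. HSPA5 (BiP) was at 372 CPM in C1233W, against 362 and 443 CPM.

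Of 27 tested ribosome biogenesis genes, edgeR called 7 lower (25.9%, beside 1.63% of all genes) and 0 higher. The other 20 were not called, and the median log2 fold change was -0.35. C1233W was below both other libraries for 22 of the 27, and for 40.9% of all genes. DESeq2 called 1 of them, UTP20, and edgeR without the filter 0. UTP20 and UTP15, components of the machinery that processes the small-subunit rRNA, had 85.3 and 37.2 CPM in C1233W, against 153 and 70.3 CPM in P1048R and 138 and 64.3 CPM in T1202K. They fell by 0.77 and 0.86 in log2 (edgeR, Benjamini-Hochberg adjusted p = 0.0005632 and 0.0002742).

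The other called members act at several steps of ribosome production. UBTF, which organises rDNA for RNA polymerase I, had 177 CPM in C1233W, against 283 in P1048R and 262 in T1202K. POLR1B, a core subunit of that polymerase, had 110 CPM, against 150 and 161 CPM. NIP7, RRP9 and RRP12, which act in rRNA processing and subunit assembly, fell by 0.73, 0.72 and 0.51 in log2. The abundant nucleolar proteins did not follow this direction, NPM1 being at 2239 CPM, against 1803 and 1961 CPM, and NCL at 2026 CPM, against 1914 and 1959 CPM. Ribosomal protein genes, the structural products of the pathway, gave no call by either test among 45, beside 3.8% of all genes called by edgeR. In the TMM-scaled fit 44 log2 fold changes were above 0, with a median of 0.17. C1233W lay above both other libraries for 33 of the 45, and for 36.4% of all genes. The median of the 45 was 0.28 over P1048R alone and 0.05 over T1202K alone.

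A few other genes called lower by edgeR were singled out after their values were seen, from no list. DESeq2 called none of them, with adjusted p-values from 0.115 to 0.422. METTL1 and WDR4, which together methylate tRNA guanosines, had 14.4 and 21.1 CPM in C1233W, against 28.5 and 33.9 CPM in P1048R and 26.9 and 43.0 CPM in T1202K. PUS1, a pseudouridine synthase, had 42.6 CPM, against 70.3 and 71.1 CPM. The assembly factors NOL6, RRS1 and GRWD1 had 24.4, 28.2 and 48.9 CPM, against 47.4, 46.0 and 74.1 CPM in P1048R and 45.9, 52.5 and 86.7 CPM in T1202K. In each of these 6 genes C1233W was the lowest of the 3 libraries, as it was for all genes called lower.

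**Figure D4:**
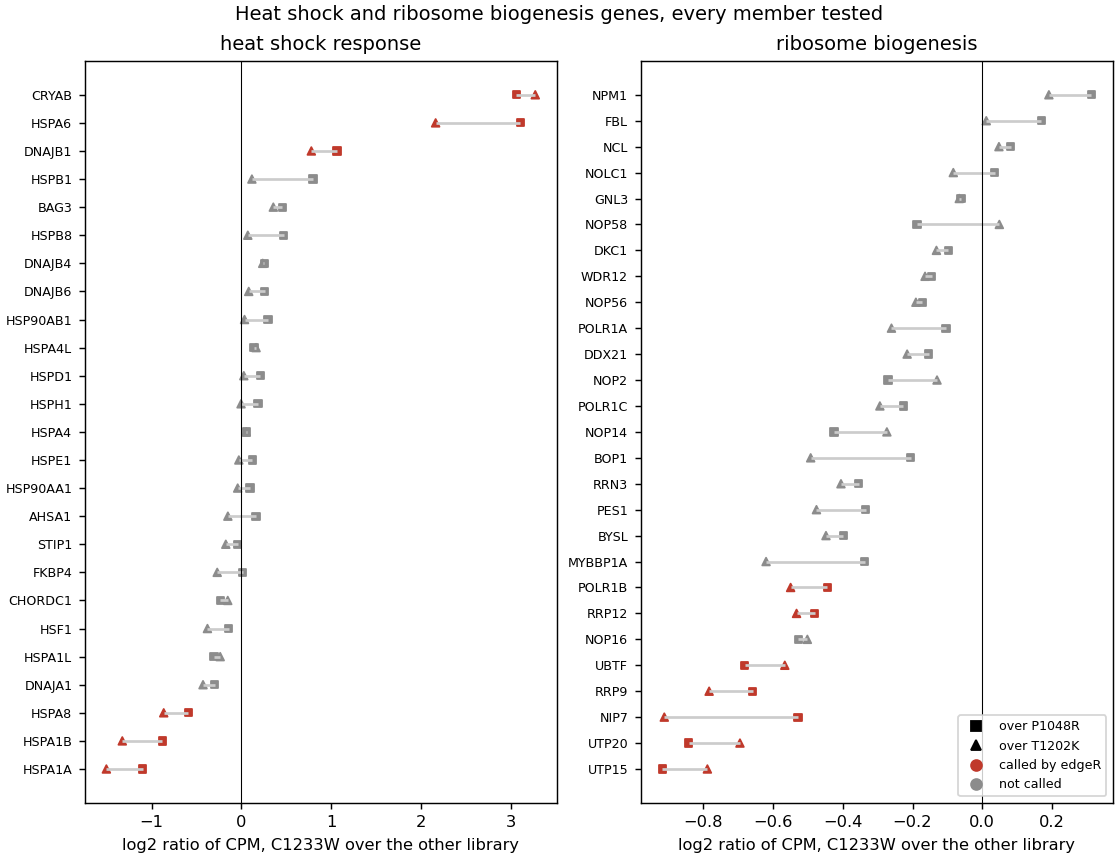
Every tested member of the heat shock response (25 genes, left) and of ribosome biogenesis (27 genes, right), with the log2 ratio of CPM in C1233W over P1048R (squares) and over T1202K (triangles), and members called by edgeR in red. The heat shock calls lie at both ends, CRYAB, HSPA6 and DNAJB1 to the right of 0 and HSPA8, HSPA1B and HSPA1A to the left, whereas the 7 ribosome biogenesis calls all lie to the left.

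Of 30 immediate early genes, induced within minutes of growth factor signalling, edgeR called 3 higher and 1 lower. These were 10% and 3.33%, beside 2.17% and 1.63% of all genes. DESeq2 called none, and the median log2 fold change was 0.30. The median was 0.19 over T1202K alone and 0.11 among members at a minimum of 5 CPM. FOSB had 3.28 CPM in C1233W, against 1.04 in P1048R and 0.908 in T1202K, and FOS had 7.66 CPM, against 1.65 and 4.36 CPM. DUSP6, a phosphatase that switches off ERK kinases, had 6.17 CPM, against 2.95 and 2.91 CPM (edgeR, Benjamini-Hochberg adjusted p = 0.0458). ETV5, an ETS transcription factor named by the rule, had 9.95 CPM, against 3.99 and 4.00 CPM. Its relatives ETV4 and ETV1, singled out after their values were seen, had 8.65 and 24.9 CPM in C1233W, against 3.04 and 12.0 CPM in P1048R and 3.09 and 13.0 CPM in T1202K. All 3 ETS genes were called higher by edgeR and none by DESeq2, which gave adjusted p-values of 0.677 for ETV5, 0.611 for ETV4 and 0.368 for ETV1. KLF10 was the gene called lower, at 54.2 CPM, against 91.8 and 64.3 CPM, and EGR1 and JUN were not called, at 7.86 and 299 CPM in C1233W, against 3.99 and 357 CPM in P1048R and 5.72 and 368 CPM in T1202K.

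Of 33 extracellular matrix genes, edgeR called 6 higher (18.2%, beside 2.17% of all genes) and 1 lower (3.03%, beside 1.63%). DESeq2 called none, and the median log2 fold change was 0.35. FN1 (fibronectin) had 58.3 CPM in C1233W, against 34.5 in P1048R and 36.6 in T1202K, and COL3A1 had 11.4 CPM, against 5.30 and 5.54 CPM. LAMB1, VCAN, COL1A1 and SPARC were the other genes called higher, with log2 fold changes of 0.52 to 0.65, and COL5A3 was the gene called lower. Of 6 fibroblast and endothelial markers tested, edgeR called 3 higher (50%), COL1A1, COL3A1 and KDR, with a median of 0.70. COL1A1 and COL3A1 belong to the matrix list as well, so their calls are counted in both lists. The whole list of 13 such markers summed to 59.3 CPM in C1233W, against 29.5 and 38.5 CPM. COL1A1 alone gave 31.0 CPM of this in C1233W, against 16.4 in P1048R and 23.1 in T1202K. COL1A2 and VWF had no read in any library, and DCN and CDH5, defining genes of fibroblasts and endothelium, had 1 read in C1233W and none in the others. The part of these markers in the matrix differences was not tested.

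Of 32 secreted cytokines and growth factors, 3 were called higher (9.38%, beside 2.17% of all genes) and 0 lower by edgeR and none by DESeq2 (median 0.36). IL11, a cytokine of the interleukin-6 family, had 3.38 CPM in C1233W, against 0.695 in P1048R and 0.999 in T1202K. The activin subunits INHBA and INHBE had 2.29 and 5.97 CPM, against 0.521 and 2.43 CPM in P1048R and 0.454 and 2.09 CPM in T1202K. IL11 and INHBA reached 1 CPM in C1233W alone, so the filter kept them through the library in which they were high. Of 35 adhesion and junction genes, 2 were called higher (5.71%) and 0 lower by edgeR and none by DESeq2 (median 0.27), CDH1 (E-cadherin) at 6.57 CPM, against 2.26 and 2.72 CPM, and L1CAM, a neuronal adhesion protein, at 5.47 CPM, against 2.61 and 1.27 CPM.

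The long nuclear RNAs NEAT1 and MALAT1 were among the genes called by both tests. Their annotated class, lincRNA, made up 9 of the 346 genes called higher by edgeR (2.6%), beside 3.49% of all genes tested. NEAT1, the scaffold RNA of paraspeckles, had 253 CPM in C1233W, against 128 in P1048R and 93.1 in T1202K, a log2 fold change of 1.19 ± 0.15 (SE; edgeR, Benjamini-Hochberg adjusted p = 3.947e-12). MALAT1, a nuclear speckle RNA, had 133 CPM, against 74.2 and 61.0 CPM, a log2 fold change of 0.97 ± 0.15 (edgeR, Benjamini-Hochberg adjusted p = 1.308e-07). Other genes called by both tests included TSC22D3 (GILZ), a glucocorticoid-induced gene, at 382 CPM, against 183 and 223 CPM, and PDCD4, an inhibitor of translation, at 162 CPM, against 92.9 and 94.2 CPM. ZNF689, a zinc finger gene, was 1 of the 4 called lower by both, at 60.8 CPM, against 113 and 111 CPM.

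Calls among chromatin genes were about as rare as among all genes, of which edgeR called 3.8%. Of 30 SWI/SNF subunits, PBRM1 was the 1 called, and the median log2 fold change was -0.17. C1233W was below both libraries for 20 of the 30, and for 40.9% of all genes. The PBAF partners ARID2, BRD7 and PHF10 were at 64.9, 193.5 and 183 CPM in C1233W, against 78.7, 188 and 211 CPM in P1048R and 72.6, 195 and 204 CPM in T1202K. None of the 23 Polycomb and H3K27 regulators and none of the 11 replication-dependent histones was called by either test, and of 36 HOX genes 1 was called higher (HOXC12, 9.65 CPM, against 4.69 and 5.63 CPM). HIST2H4A passed the size rule downward and was called lower under total counts and with the GC and length trend removed, but not in the TMM-scaled fit, at 1.99 CPM in C1233W, against 4.78 and 4.63 CPM, and near-identical histone copies make its count uncertain.

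Against the same share of 3.8%, no call was made by either test among 30 mitosis and spindle genes (median -0.05), 34 DNA replication genes (median -0.12) or 18 tubulins (median 0.05). Of the DNA replication genes, 2 were called lower when total counts set the scale or the GC and length trend was removed. Of 15 mitochondrially encoded genes 1 was called higher by edgeR (MT-ND6, 2991 CPM in C1233W, against 2129 and 2111 CPM). C1233W lay above both other libraries for 13 of these 15 (median 0.23), and for 36.4% of all genes. Cholesterol synthesis gave 1 higher (INSIG1) and 2 lower (MVK and NSDHL) of 23. Autophagy and lysosome genes gave 1 higher of 38 (GPNMB), and actin, SRF and YAP targets 1 lower of 25 (AJUBA).

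Calls by edgeR in the signalling and immune lists stand against 2.17% of all genes called higher and 1.63% called lower. NRF2 targets gave 2 higher of 19 (10.5%), HMOX1, which degrades haem, at 59.3 CPM in C1233W, against 33.5 and 41.3 CPM, and SLC7A11, which the ATF4 list holds as well. The p53 targets gave 1 higher of 26, which was SESN2. NF-kB targets gave 1 higher (CD83) and 2 lower (RELB and NFKB1, 15.4%) of 13. NFKB1 was at 42.5 CPM in C1233W, against 67.8 in P1048R and 61.7 in T1202K, and RELB at 6.07 CPM, against 16.9 and 8.72 CPM. The list's median was -0.30 but 0.10 without a filter on low counts, so no direction is given for it. TGF-beta and BMP targets gave 2 higher (IL11 and COL1A1) and 1 lower (ID3, 38.2 CPM, against 62.8 and 72.2 CPM) of 17. Interferon-stimulated genes gave 1 higher of 26, IFI44L, which passed the filter of 1 CPM through C1233W alone. The Notch pathway gave 1 lower of 19 (HEY2), and Wnt targets and metallothioneins no call among 18 and 3.

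**Figure D5:**
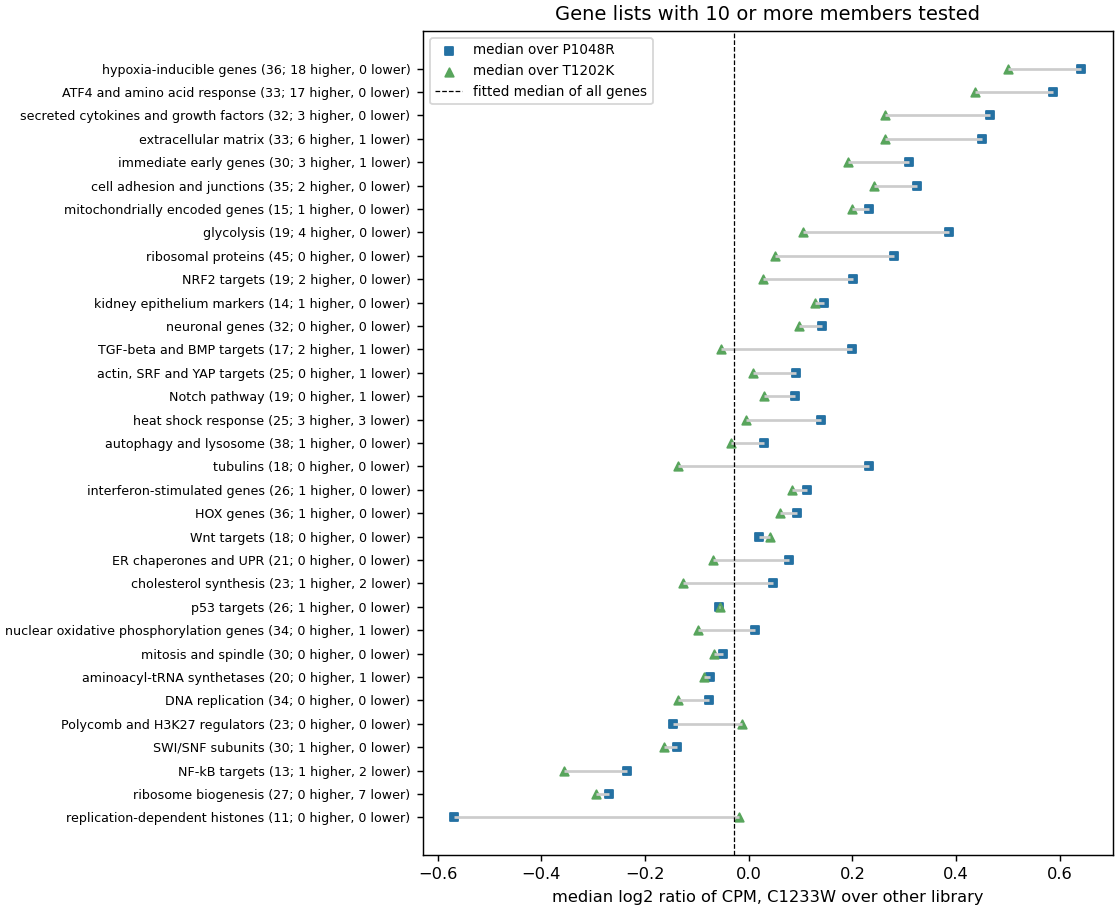
Median log2 ratio of CPM in C1233W over P1048R (blue squares) and over T1202K (green triangles) for the gene lists with 10 or more tested members, with the number tested and the edgeR calls in each direction in the label. The dashed line marks the fitted median of all genes at -0.03. Hypoxia-inducible and ATF4 genes lie farthest to the right, at medians of 0.61 and 0.51 in the fit, and ribosome biogenesis at -0.35 is among the lists farthest to the left.

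Markers of other cell types showed little difference apart from the fibroblast and endothelial list. Neuronal genes, of which HEK293T cells express many, gave no call among 32, beside 3.8% of all genes called by edgeR. They summed to 1594 CPM in C1233W, against 1429 in P1048R and 1494 in T1202K. Kidney epithelium markers summed to 436.5 CPM, against 406 and 433 CPM, with 1 called higher of 14 (7.14%, beside 2.17% of all genes). It was LRP2, the endocytic receptor megalin, at 54.7 CPM, against 30.1 and 32.0 CPM. Blood cell markers summed to 7.26 CPM, against 6.17 and 7.45 CPM, and keratinocyte and carcinoma line markers to 39.2 CPM, against 40.6 and 40.7 CPM, with no call among the 3 and 4 members tested.

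Of all called genes, 64 of the 346 higher and 21 of the 261 lower belonged to any of the 37 lists. The called genes also differed from the rest in their make-up. Protein-coding genes made up 90.8% of the higher and 95.4% of the lower genes, beside 83.7% of all tested. The median GC content of the transcripts was 49.9% in the higher genes and 53.7% in the lower genes, beside 48.0% in all genes tested. Median transcript length was 4174 bases in the higher and 3108 bases in the lower genes, beside 3424 in all, and the median level over the 3 libraries was 10.0 and 42.2 CPM, beside 23.9 CPM.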

How the data were processed

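RNA from PBRM1-disrupted HEK293T cells was sequenced with a stranded Qiagen kit, 1 library per construct. The authors deposited whole-number read counts per gene without normalization. The submitters' processing notes name Trim Galore, HISAT2, featureCounts and hg38. No source used here gives the annotation release, the strand setting or the handling of multiply aligned reads. The 58735 identifiers were all found in GENCODE 29, which supplied coordinates, GC content and length, and 58422 carried the same symbol in it.

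Groups were taken from the genotype labels. Libraries were scaled by TMM in edgeR 4.0.16 (R 4.3.3), with factors of 0.971 for C1233W, 1.03 for P1048R and 1.00 for T1202K. The quasi-likelihood test was adjusted by Benjamini-Hochberg over 15971 genes, and its prior degrees of freedom were estimated as infinite, so 1 spread trend served all genes. The SE is the log2 fold change divided by the root of the F statistic. Single ratios added 0.5 to each count and have 95% Clopper-Pearson intervals, which like the floors cover counting error only. The test was checked on simulated counts, in which P1048R and T1202K were drawn as replicates and C1233W varied as they did. That check therefore cannot cover the use of different constructs here. DESeq2 1.42.0 was an alternative.

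Named genes are PBRM1, up to 14 higher and 10 lower genes past both rules at a mean of at least 5 CPM, and up to 4 members per list. Other genes named were chosen after their values were seen. The comparison and the lists were chosen with earlier results of these data known.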

Additional observations from a re-analysis of the deposited data

How the results depend on the processing

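Upward edgeR calls stayed within 1.5 times the 346 under DESeq2 size factors (323), total counts (293), totals without PBRM1 (351), a minimum of 5 CPM (255), removal of a GC and length trend (448) and the newer edgeR dispersion method (373, tried after seeing the data). Upward, no filter on low counts gave 7 (31303 genes tested) and DESeq2 22. Downward, beside 261, total counts gave 550, no filter 0 (2769 genes in either direction at an unadjusted p under 0.05, beside 2937 with the filter), the trend removal 677 and DESeq2 4 (831 at an unadjusted p under 0.05). The cause was not tested. The size rule gave, beside 241 higher and 32 lower, 59 and 6 at a minimum of 5 CPM, 564 and 194 at 1.5-fold, and 71 and 9 at 3-fold. Leaving out P1048R or T1202K gave 492 to 584 higher and 79 to 132 lower genes, since 1 condition fewer had to be met. The edgeR test has no value with a library left out, as no residual degree of freedom remains.

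None of the 79 named genes changed direction while called in any setting. DESeq2 dropped the call of 52 and the lack of a filter that of 57. The calls of DUSP28, DUSP6, MT-ND6, ALDOC, INSIG1, CD83 and HOXC12 were lost in at least 1 other setting. FOSB, IFI44L, IL11, INHBA, GPNMB and KDR were under 5 CPM in every library and so were not tested at a minimum of 5 CPM. Of 37 list medians 15 changed sign somewhere, 12 of them at or under 0.1 in size. The ATF4, hypoxia and ribosome biogenesis medians kept their sign. No paired analysis was possible because each construct has 1 library. The single C1233W library, the pooling of different constructs and the difference in PBRM1 dose limit every result.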

Other observations

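The library with unaltered PBRM1 (WT), not used in the fit, can be set beside the called genes after scaling all 4 libraries together. Of the 346 genes higher in C1233W, the WT level was nearer to the mean of P1048R and T1202K for 207 and nearer to C1233W for 139, with 27 beyond C1233W and 60 beyond both of the pair. Of the 261 lower genes, it was nearer to the pair for 106 and nearer to C1233W for 155, with 88 beyond C1233W and 25 beyond both of the pair. WT was thus nearer to C1233W for 40.2% of the higher and 59.4% of the lower genes. Over all tested genes it was nearer for 52.5% of those with a fold change above 0 and 51.4% of those below 0. WT lay beyond C1233W for 7.8% of the higher and 33.7% of the lower genes, beside 37.65% and 39.5% of all tested genes in these directions. It lay beyond both of the pair for 17.3% and 9.58%, beside 24.55% and 28.8%. All these shares use the C1233W and pair values that made the calls. Called genes were picked for a wide gap between C1233W and the pair, which leaves any other library less room outside it. No conclusion about WT is therefore drawn from the shares.

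Some named genes of the amino acid response were lowest in WT. SLC7A11 had 112 CPM in C1233W, 40.7 in P1048R and 33.3 in T1202K, against 16.5 CPM in WT. DDIT4 had 54.7, 10.2 and 12.4 CPM in the same order, against 8.99 in WT, and CHAC1 16.9, 4.69 and 4.68 CPM, against 3.00 in WT. ANKRD37, a hypoxia gene, was lowest in WT too, with 5.61, 1.26 and 2.38 CPM, against 0.856 in WT. Others were ordered differently. SLC2A3 had 145 CPM in C1233W, 27.7 in P1048R and 42.1 in T1202K, against 61.6 in WT, and HSPA1A 328, 697 and 930 CPM, against 1474 in WT. These are values of 1 library each, and no difference from WT was tested.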
